A study of Mus musculus with 30 samples.

Results

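The windows described here were accessible in mouse marrow-derived mesenchymal stem cells (MSCs) and nearly closed in NIH3T3 fibroblasts. Accessibility was measured by ATAC-seq, in which a transposase cuts DNA that is not covered by nucleosomes, and each library was deposited as read counts over consensus windows. In the 4 h table a window was taken when all 3 MSC control libraries had at least 1 CPM, the count scaled to the library's total over windows, and all 3 NIH3T3 control libraries had at most 0.2 CPM. Of 361428 autosomal windows 646 met this rule, or 0.543% of the 118929 autosomal windows that reached 1 CPM in all MSC controls. A further 84089 windows reached 1 CPM in all controls of both cell types, and 828 met the mirrored rule and were open in NIH3T3 only.

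The libraries used came in groups of 3. MSCs were untreated or treated with CK666, an inhibitor of the Arp2/3 complex, for 4 h or for 24 h, or treated for 24 h with cytochalasin D (CytoD), which blocks the growing end of actin filaments, while NIH3T3 cells were untreated or treated with CK666 for 4 h. The study asked how the structure of actin in the nucleus shapes chromatin accessibility, and used NIH3T3 as a second cellular setting. All MSCs came from a primary line made from the pooled marrow of male C57BL/6J mice, so that the libraries do not stand for separate animals. NIH3T3 is an embryonic fibroblast line from ATCC. The labels also give C57BL/6J for the NIH3T3 libraries, although the line was derived from NIH Swiss mice, and a sequence difference between the cells was not tested. Nothing says that replicates were separate cultures, so p-values measure the spread between libraries, which may be technical.

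Most regulatory elements that differ between cell types are distal enhancers, bound by transcription factors of the lineage, while many promoters are open in every cell. In marrow stroma RUNX2 and MSX2 act in bone formation, and EBF factors and C/EBP proteins act in the stromal and fat lineages. RUNX, EBF and C/EBP proteins bind short DNA words that can be looked for in the window sequences. NIH3T3 is an immortal line, and lines of this kind are known to have often lost the Ink4a/Arf locus, which holds the cell cycle inhibitors p16Ink4a, p19Arf and p15Ink4b. ATAC-seq gives few reads or none from a closed window and none from a window whose sequence is missing. Without a genomic DNA library these cannot be told apart here.

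Total counts in windows ranged from 29239381 to 30017192 in the MSC controls at 4 h, from 31634170 to 34979833 with CK666, from 24368857 to 27866363 in the NIH3T3 controls and from 14496058 to 23146416 in NIH3T3 with CK666. The floor of the rule thus stood for 30 or 31 counts in an MSC library, and the ceiling for at most 4 or 5 counts in an NIH3T3 library. At 24 h the totals were between 14071301 and 22352180. Rank correlations between replicates over 208611 windows were between 0.939 and 0.952 in the control groups and MSCs with CK666, and between 0.88 and 0.917 in NIH3T3 with CK666. Housekeeping promoters were open in both cell types, at a median of 25.8 CPM in MSC controls and 22 CPM in NIH3T3 controls over 10 genes. Osteoblast promoters had medians of 8.13 and 0.904 CPM over 16 genes. They were not all higher in MSC. Runx2 (13 and 13.6 CPM), Sp7 (1.49 and 1.56 CPM), Col1a1 (7.13 and 9.85 CPM), Col1a2 (16.5 and 23.7 CPM) and Ibsp (0.349 and 0.604 CPM) were as high or higher in NIH3T3. Posterior Hox promoters had medians of 7.85 and 0.631 CPM over 14 genes, among which Hoxd8 (2.93 and 20.2 CPM) and Hoxd9 (3.47 and 20 CPM) were higher in NIH3T3. Macrophage and leukocyte promoters were not at 0 in the MSCs, with 0.843 to 6.69 CPM in MSC and 0.552 to 6.45 CPM in NIH3T3 controls over 8 genes. The part of other marrow cells in the results was not tested.

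The sequences below are the central 200 bases of windows on which the results turn, read from GRCm38 on the plus strand, 5′ to 3′. They are the most accessible window, near Zswim2, windows first in rank for a response described further on, and a window beside Cdkn2a that was added after its values were seen. Capitals mark matches on either strand to any of 16 short motifs, of which the ones used below are RUNX (TGTGGTT), C/EBP (TTGCNNAA), a nuclear receptor word (AGGTCA), AP-1 (TGACTCA, and with any base in the middle TGANTCA), TEAD (GGAATG), EBF, the GATA family motif (read as AGATAAG), SP/KLF (GGGCGG) and ETS (CCGGAAG). The other 6 are an NFI word (TTGGCA), a CTCF core (AGGTGGC), a FOX site (TGTTTAC), a TWIST-type E-box (CATCTG), a homeodomain site (TAATTA) and the AHR core (TTGCGTG), where the pair of AP-1 forms counts as separate motifs. Windows carry the name of the nearest protein-coding start, which is a position and not a target.
Zswim2 (chr2:83898576-83898775): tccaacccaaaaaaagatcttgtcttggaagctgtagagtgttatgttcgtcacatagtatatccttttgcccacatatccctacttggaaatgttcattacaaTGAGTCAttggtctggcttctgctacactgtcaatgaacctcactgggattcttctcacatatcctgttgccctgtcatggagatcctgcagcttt
Fam72a (chr1:131545993-131546192): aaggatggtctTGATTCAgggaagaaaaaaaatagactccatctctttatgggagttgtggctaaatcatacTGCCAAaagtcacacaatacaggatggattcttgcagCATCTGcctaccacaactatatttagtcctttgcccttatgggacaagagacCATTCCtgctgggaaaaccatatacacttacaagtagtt
Galnt18 (chr7:111689491-111689690): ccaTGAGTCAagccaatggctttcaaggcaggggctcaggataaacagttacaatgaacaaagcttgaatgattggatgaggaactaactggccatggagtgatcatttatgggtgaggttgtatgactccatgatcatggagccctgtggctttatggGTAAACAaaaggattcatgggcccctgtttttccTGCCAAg
Pigu (chr2:155318628-155318827): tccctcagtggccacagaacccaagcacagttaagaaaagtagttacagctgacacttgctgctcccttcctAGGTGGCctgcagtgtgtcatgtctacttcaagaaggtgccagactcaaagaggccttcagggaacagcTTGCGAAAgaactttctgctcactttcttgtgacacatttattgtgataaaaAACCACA
Rnd3 (chr2:51123565-51123764): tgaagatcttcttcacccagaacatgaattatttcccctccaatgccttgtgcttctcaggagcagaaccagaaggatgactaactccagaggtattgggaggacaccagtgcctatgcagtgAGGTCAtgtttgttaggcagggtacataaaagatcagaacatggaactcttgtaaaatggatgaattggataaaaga
Srek1 (chr13:103680163-103680362): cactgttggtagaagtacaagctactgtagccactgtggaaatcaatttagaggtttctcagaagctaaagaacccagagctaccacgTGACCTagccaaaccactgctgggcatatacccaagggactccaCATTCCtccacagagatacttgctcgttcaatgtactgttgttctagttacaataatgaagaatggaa
Cdkn2a (chr4:89302235-89302434): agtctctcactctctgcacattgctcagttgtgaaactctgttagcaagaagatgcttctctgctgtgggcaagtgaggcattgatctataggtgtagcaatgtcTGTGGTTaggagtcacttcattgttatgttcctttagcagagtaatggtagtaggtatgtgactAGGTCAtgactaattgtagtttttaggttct
The windows near Pigu and Cdkn2a each hold a RUNX match, and that near Pigu also a C/EBP match.

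The 646 windows were short and mostly distal. Their median length was 540 bp (503 to 1400 bp), against 607 bp for windows open in both cell types. A transcription start site (TSS) of a protein-coding gene lay in 23 of them, or 3.56%, compared with 3.14% of the windows open in NIH3T3 only, 5.39% of all autosomal windows and 15.3% of the windows open in both. Introns held 251 windows (38.9%), exons 47 (7.28%) and intergenic sequence 325 (50.3%), and the median distance to the nearest start was 22300 bp. Their sequence was lower in G and C, with a median of 42.6% against 46.8% in windows open in both and 44.4% in windows open in NIH3T3 only. Repeats covered at least 50% of the window in 12.8%, compared with 3.54% of the windows open in both and 4.59% of those open in NIH3T3 only.

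Of the 16 motifs, RUNX was the one whose share stood furthest above that of all autosomal windows. The word TGTGGTT was found in the central 200 bases of 109 of the 646 windows, or 16.9%. It was found in 7.71% of all autosomal windows, in 7.03% of the windows open in both cell types and in 4.23% of those open in NIH3T3 only. Among the 196 windows with under 10% repeat sequence the share was 16.8%, against 6.6% of all such windows, so that the shares stood as far apart outside repeats.

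Matches to the nuclear receptor word were found in 20.1% of the windows, against 13.2% of all windows and 9.3% of the NIH3T3-only windows. C/EBP matches were found in 13.9%, against 9.14% and 8.82%, and TEAD matches in 19.3%, against 15.7% and 12.9%. Among windows with under 10% repeat sequence C/EBP was in 11.7%, against 12.1% of the NIH3T3-only windows, so that this order turned round, while TEAD was in 24.5% against 15.4%. EBF matches were rare, in 11 windows (1.7%) against 0.901% of all windows and 0.242% of the NIH3T3-only windows. AP-1 showed the other order. TGACTCA was in 17.5% of the MSC-only windows, 19.3% of all windows and 23.8% of the NIH3T3-only windows, and TGANTCA in 23.8%, 24.8% and 36.8%. The GC-rich promoter words were scarce, with SP/KLF in 4.64% against 10.8% of the windows open in both, and ETS in 0.464% against 2.19%. GATA matches were in 3.41% against 2.25% of all windows, and NFI matches in 14.2% against 12.2%. The CTCF, FOX, homeodomain, E-box and AHR words were in 3.25%, 3.72%, 2.48%, 16.9% and 0.464% of the windows, against 3.81%, 3.03%, 3.26%, 18.1% and 0.462% of all windows. These shares are descriptions with no test, and a match is not a bound site.

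**Figure D1:**
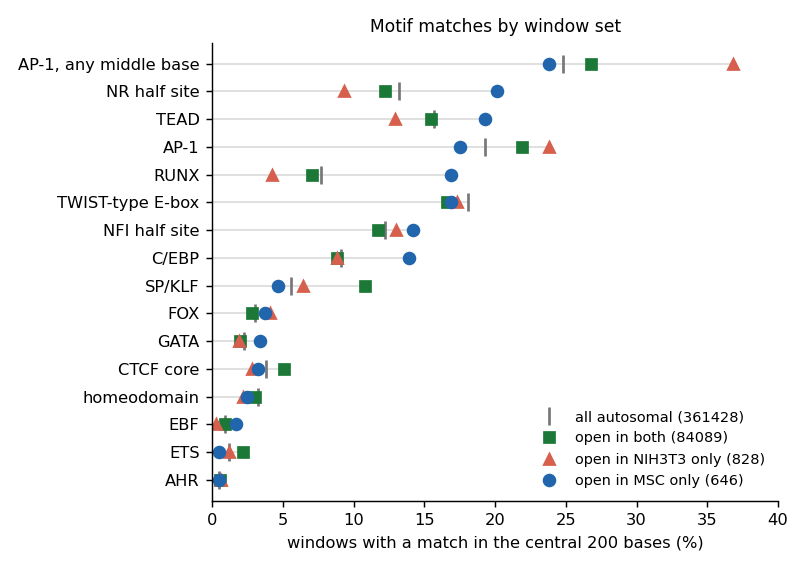
Share of windows (x axis, percent) whose central 200 bases hold a match to each motif (y axis), for windows open in MSC only (circles), open in NIH3T3 only (triangles), open in both (squares) and all autosomal windows (bars). RUNX stands at 16.9% in the MSC-only windows and at 4.23% in the NIH3T3-only windows, while TGANTCA stands at 23.8% and 36.8%.

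The levels that chose the windows are given as a description. The group mean over the MSC controls had a median of 1.9 CPM (quartiles 1.45 and 3.05) and a highest value of 24.7 CPM, and 69 windows had a mean of 5 CPM or more. In NIH3T3 controls the group mean had a median of 0.0881 CPM and a highest value of 0.176 CPM. Both limits cut through a continuum. Among the windows inside, 89 had their lowest MSC control between 1 and 1.1 CPM and 257 had their highest NIH3T3 control between 0.15 and 0.2 CPM. Just outside, 572 windows met the MSC floor with a highest NIH3T3 control between 0.2 and 0.25 CPM, and 74 met the NIH3T3 ceiling with a lowest MSC control between 0.9 and 1 CPM. No reads at all were found in the 6 NIH3T3 libraries for 80 of the 646 windows. By the rule, any MSC-open autosomal window without a read there is among the 646. Of all autosomal windows 228 had no read in these libraries. With 139242081 counts in the 6 libraries, 3 counts correspond to 0.0215 CPM, and against this limit the MSC level of the 80 windows was at least 48.7-fold higher, and at least 812-fold higher in the strongest. Intervals and limits of this kind cover counting error only.

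**Figure D2:**
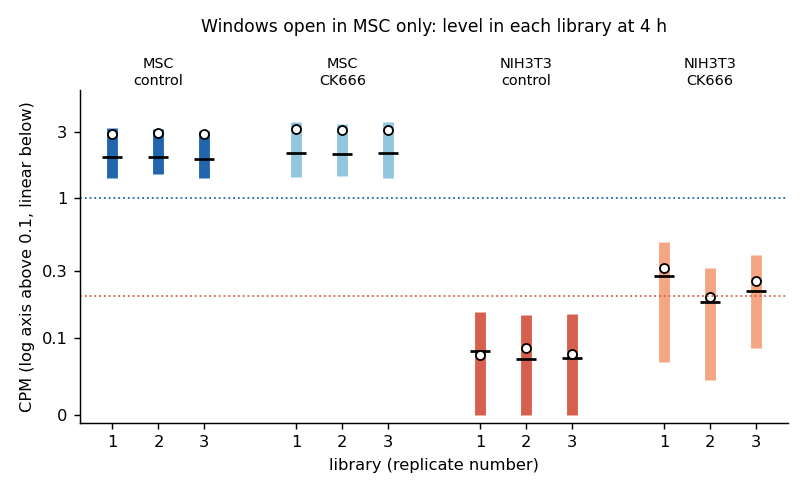
CPM (y axis, log scale above 0.1 and linear below) over the 646 windows in each of the 12 libraries at 4 h, with the quartiles as bars, the median as a line and the mean as a circle; dotted lines mark the limits of the rule at 1 and 0.2 CPM. The MSC means sit between 2.89 and 3.11 CPM, the NIH3T3 control means between 0.0772 and 0.0859 CPM and the NIH3T3 means with CK666 between 0.196 and 0.314 CPM.

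The most accessible window lay 24749 bp from the start of Zswim2, at chr2:83898422-83898930 between genes. It had 23.8, 25.5 and 24.9 CPM in the MSC controls and 0.041, 0.108 and 0.037 CPM in the NIH3T3 controls. With CK666 it had 24.3, 23.4 and 26.3 CPM in MSC and 0, 0.0897 and 0.13 CPM in NIH3T3. Treated and untreated MSC libraries overlapped, and the window was at 21.3 to 22.8 CPM in the controls of the 24 h experiment.

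The window at the start of Cdkn2a, whose products p16Ink4a and p19Arf restrain the cell cycle, came next in level. It lay at chr4:89294530-89295655 and had 17.7, 19.3 and 21 CPM in the MSC controls. Of the NIH3T3 controls 1 had 0.0821 CPM and the other two had none, and no read was counted in NIH3T3 with CK666. Other high windows were near Ap5m1, a subunit of an endosomal adaptor complex (17.9 to 18.9 CPM), and at the start of Aph1c, a subunit of gamma-secretase (16.2 to 19.3 CPM). The last 3 of the 8 highest were near Gm8220, Ear10 and Ear2 on chromosome 14, with 16.9 to 17.9, 16 to 17.7 and 16.2 to 16.8 CPM. The sequences of the Ear10 and Ear2 windows each had 3 places in the genome.

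The windows were not spread evenly over the genome. Chromosome 14 held 95 of them, or 1.86% of its MSC-open windows, while chromosome 5 held 13, or 0.187%. When the MSC-open windows were read in order along each chromosome, 549 members stood alone and 97 stood in 31 runs of 2 or more neighbours that were all members.

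The longest run held 15 windows over 132 kb at chr4:89254731-89386380, around Cdkn2a and Cdkn2b. The 15 windows had between 1.18 and 19.4 CPM in the MSC controls, and 10 of them had no read in any NIH3T3 library. The stretch without NIH3T3 reads was sharply bounded. From chr4:89250375 to chr4:89387692, over 137 kb, 23 consecutive windows of the table held 13 reads in the 6 NIH3T3 libraries, 17 of them none, and 15789 reads in the 6 MSC libraries. The next window on the left held 125 NIH3T3 reads and the next on the right 141. The nearest MSC-open neighbours on either side had 11.5 and 8.94 CPM in the NIH3T3 controls, above their 1.8 and 2.31 CPM in the MSC controls. The start of Cdkn2b, the gene of p15Ink4b, had 12.6, 13.2 and 14 CPM in the MSC controls and none in the NIH3T3 controls. Closed chromatin and missing sequence cannot be told apart in this stretch.

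**Figure D3:**
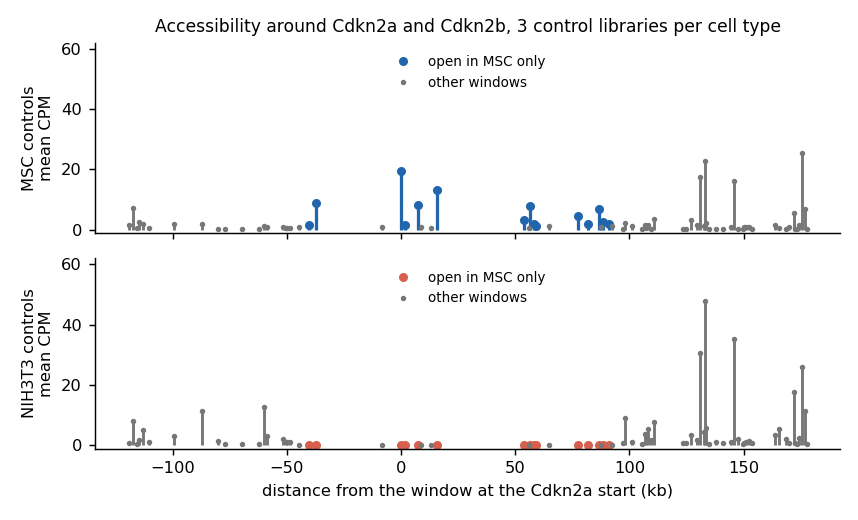
Mean CPM over 3 control libraries (y axis) of each window around Cdkn2a and Cdkn2b in MSC (top) and NIH3T3 (bottom), against the distance from the window at the Cdkn2a start in kb (x axis); coloured points are windows open in MSC only. The 15 coloured windows reach 19.4 CPM in MSC and lie at the baseline in NIH3T3, while other windows on the right reach 47.7 CPM in NIH3T3.

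The other runs of 5 or 8 windows lay close together on chromosome 14, in a cluster of Ear genes, which encode eosinophil-associated ribonucleases, and Ang genes of the angiogenin family. Between chr14:43859441 and chr14:44683754, 25 of 33 MSC-open windows were members, with 1.05 to 17.5 CPM in the MSC controls, and 15 of the 25 had no NIH3T3 read. The 2 runs of 8 lay at chr14:43859441-43919982, near Ear1 and Ear10, and at chr14:44186464-44683754, near predicted genes such as Gm8220. This region is made of near-identical copies. When the window sequences were aligned to the genome, 20 of the 25 had another place with at least 95% identity over at least 80% of the window, and reads of such windows cannot be assigned to a copy with certainty. The sources used here do not say how the authors treated reads with several places.

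Over all 646 windows 57 had such a copy (8.82%), compared with 12 of the 828 NIH3T3-only windows (1.45%) and 0 of 1682 windows open in both, taken as every 50th. The copies were most frequent where NIH3T3 had no read, at 19 of 80 windows (23.8%) against 38 of 566 (6.71%). The Ear and Ang region alone held 20 of the 57 windows with a copy and 15 of the 80 without a read. Motif shares also differed in the windows without any NIH3T3 read, with AP-1 (TGACTCA) in 32.5% against 15.4% of the others and RUNX in 12.5%. The RUNX share was 17.5% in windows with some NIH3T3 reads. Windows that are near-identical copies can carry the same word, and the shares without such windows are not given. In the libraries at 24 h, 57 of the 80 windows had at least 1 CPM in all 3 controls.

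Within 50 kb of a TSS lay 425 of the windows, at 371 genes, which was 2.29% of the 16174 genes with an MSC-open window in that range. Most genes had 1 window (335), 25 had 2, and 11 had 3 or more. After Cdkn2a, Ear1 and Cdkn2b with 5 windows each and Ear2 with 4, the genes with 3 were Ear10, Ang5, Trim12a, of the TRIM5 family of antiviral factors, Ms4a4b, a membrane protein of lymphocytes, Gal3st2, a sulfotransferase, and Btnl6, of the butyrophilin-like family, beside a gene on chromosome 18. The windows made up all MSC-open windows near Cdkn2a, Ear1, Cdkn2b, Ear10, Ang5, Trim12a and Gal3st2, but 3 of 6 near Btnl6. A gene with both an MSC-only and an NIH3T3-only window was found 9 times.

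Bone genes were the lineage group with most of these windows. Of the 158 MSC-open windows near 18 osteoblast genes 4 were members, or 2.53%, against 0.543% of all MSC-open windows. They lay at the start of Msx2, a homeobox factor of bone development, in introns of Runx2, the main osteoblast transcription factor, and Bmp4, a bone morphogenetic protein, and near Spp1, which encodes osteopontin. The Msx2 window at chr13:53472598-53473113 had 6.69, 5.8 and 6.4 CPM in the MSC controls, against 0.164, 0 and 0 CPM in the NIH3T3 controls. The Runx2 window at chr17:44811479-44812022 had a mean of 2.42 CPM in MSC and 0.0759 CPM in NIH3T3, the Bmp4 window 1.62 and 0.109 CPM, and the Spp1 window 1.38 and 0.0998 CPM.

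Among the stromal and skeletal transcription factors 2 of 201 windows were members (0.995%), both in introns of Ebf2, with means of 4.18 and 1.12 CPM in the MSC controls. Among the marrow stromal niche genes it was 1 of 221 (0.452%), near the chemokine gene Cxcl14. The Ink4a/Arf region held 10 of 38 (26.3%), which are the windows near Cdkn2a and Cdkn2b described above, and none near Mtap or Dmrta1. No member was found near genes of the adipocyte (118 MSC-open windows), chondrocyte (88), posterior Hox (56) and anterior Hox (35) lists. The same held for the macrophage and leukocyte (50), endothelial (64), erythroid and megakaryocyte (16), neural and epithelial (43) and housekeeping (52) lists. The windows near Runx2, Bmp4, Spp1, Ebf2 and Cxcl14 were named after their values were seen.

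Besides Cdkn2a, Aph1c, Cdkn2b and Msx2, the 23 windows with a TSS included those of Smad3, a mediator of TGF-beta signalling, with 4.22 CPM in MSC and 0.0794 CPM in NIH3T3 controls, Zfp423, a zinc finger factor of the fat lineage, with 2.62 and 0.111 CPM, and Fgf9, a growth factor of the skeleton, with 1.75 and 0.152 CPM. The start of any annotated transcript was counted, so these windows need not be the main promoters. They were 1 of 17 MSC-open windows near Smad3, 1 of 25 near Zfp423 and 1 of 7 near Fgf9. The 24 h window over the Zfp423 member was 3.88 times as long and had a mean of 25.5 CPM in the untreated MSCs. These 3 genes were picked from the 23 windows after their values were seen.

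Independent libraries of MSCs were available from the 24 h experiment, in which other consensus windows were used. A window of that table overlapped 635 of the 646, by at least 50% of the shorter window, with a median length 1.09 times that of the member. In 130 cases it was over 1.5 times as long, so that its CPM also covers sequence outside the member. Of the 635 windows 523 (82.4%) had at least 1 CPM in all 3 untreated libraries, the median of the group means was 2.52 CPM, and none was at or under 0.2 CPM in all 3.

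The difference between the cell types was also measured in the 6 libraries with CK666 at 4 h, which had no part in the choice. There 641 of 646 windows were called higher in MSC than in NIH3T3 and 0 lower, where a call stands for an adjusted p under 0.01 in edgeR's quasi-likelihood test together with a log2 fold change over 1 in size. Among all 368794 windows tested, 17.3% were called higher in MSC and 18.4% lower. Of the windows open in both cell types 24.6% were called higher in MSC and 8.34% lower. Most of the 646 windows passed the filter on low counts only through the MSC libraries, and without that filter 641 were also called higher. The median log2 fold change over the 646 windows was 3.58 (quartiles 2.71 and 5.15). Every MSC library stood above every NIH3T3 library in 637 windows, and no share over all windows is given beside this count. In the 5 windows without a call the log2 fold change was between 0.52 and 1.28. With DESeq2 639 were called higher, at an unadjusted p under 0.05 edgeR had 0 lower windows, and with any of the 6 libraries left out 633 to 641, of which 628 were called each time. The windows were chosen for a gap between these cell types, so a difference in this direction was likely beforehand. The counts describe how far it held in the treated cells.

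CK666 for 4 h moved few of the windows in MSCs. The mean over the windows was 2.89, 2.94 and 2.89 CPM in the control libraries and 3.11, 3.1 and 3.09 CPM with CK666, and 548 windows (84.8%) had at least 1 CPM in all 3 treated libraries. Called gains were 6 of 646 (0.929%) against 0.59% of 306819 windows tested, and called losses 7 (1.08%) against 0.427%. Among the windows open in both cell types 0.219% gained and 0.703% lost. The median log2 fold change was 0.02 over the windows, -0.04 over those open in both and 0 over all tested. These counts rest on few windows. Leaving out CK666 replicate 3 gave 10 gains and 3 losses, leaving out control replicate 2 gave 10 gains, and a fit with the NIH3T3 libraries gave 3 losses. The control libraries were also those that chose the windows. In windows chosen on 2 of 3 replicates, the MSC control left out had means of 2.71, 2.66 and 2.58 CPM against 2.77, 2.69 and 2.64 CPM in the libraries that chose them.

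The gains at 4 h that are named lay near Fam72a, Osbpl11, Nedd9 and Marc1. The window in an intron of Marc1, a mitochondrial reductase subunit, at chr1:184796234-184796801 had 3.58, 3.9 and 3.9 CPM in the controls and 9.33, 9.21 and 8.27 CPM with CK666. No treated library reached down to a control. The log2 fold change was 1.21 (SE 0.126, edgeR adjusted p = 3.28e-12). At 24 h the same position had 11.7, 13.1 and 13.3 CPM in controls and 16.3, 14.8 and 18.8 CPM with CK666, a log2 fold change of 0.38 that was not called.

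The window in an intron of Nedd9, a scaffold protein of adhesion signalling, at chr13:41423350-41423880 rose from 1.65, 1.5 and 1.92 CPM to 4.11, 3.4 and 4.74 CPM (log2 fold change 1.25, SE 0.188, edgeR adjusted p = 5.87e-07). The window in Osbpl11, an oxysterol-binding protein, rose by a log2 fold change of 1.26 and the window 17905 bp from Fam72a by 1.36. That near Fam72a had 4.53, 7.56 and 6.79 CPM in the controls at 24 h and 3.92, 2.63 and 4.25 CPM with CK666, so that it did not stay higher.

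The loss at 4 h that passed the limit of 50 normalized counts lay in an intron of Galnt18, a glycosyltransferase, at chr7:111689308-111689874. It had 3.07, 2.5 and 2.67 CPM in the controls and 0.917, 0.972 and 0.936 CPM with CK666 (log2 fold change -1.56, SE 0.232, edgeR adjusted p = 3.78e-07). The treated libraries lay close together and well under the controls. At 24 h it had 1.77, 1.74 and 1.29 CPM in controls and 0.832, 0.659 and 0.154 CPM with CK666, which was lower in every library but not called (edgeR adjusted p = 0.0183).

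CK666 for 24 h lowered more of the windows. Called losses were 38 of 635 (5.98%) against 1.06% of 300323 windows tested, and called gains 8 (1.26%) against 1.88%. Among the windows open in both cell types that were tested, 2.09% lost and 1.34% gained. The median log2 fold change was -0.19 over the MSC-only windows (quartiles -0.59 and 0.16), -0.04 over those open in both and 0.02 over all windows tested. None of the 24 h libraries had a part in the choice of the windows. There were 26 to 39 losses when any library was left out and 34 with DESeq2. When 24 h windows over 1.5 times as long as the member were left out 33 losses were called, and without windows with a copy in the genome 37. Leaving out CK666 replicate 1 gave 5 gains. In 18 windows the loss was called with every library left out in turn.

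The losses were partial. In the 38 windows the median of the group means was 3.73 CPM in the controls and 1.57 CPM with CK666, 21 still had at least 1 CPM in all 3 treated libraries, and none was at or under 0.2 CPM in all 3. The lowest mean with CK666 was 0.547 CPM. The log2 fold changes were between -2.07 and -1.03. The groups did not overlap in 37 windows, which the call itself makes likely. None of the 38 held a TSS, and 23 lay within 50 kb of one. At 4 h, in other libraries, the same 38 windows had a median log2 fold change of -0.04, with 21 under 0 and values between -0.95 and 0.66. None of the 7 losses at 4 h was among the 38 at 24 h, and 1 of the 6 gains at 4 h (16.7%) was among the 8 at 24 h (12.5%). These overlaps rest on few windows and are given without the overlap over all windows.

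**Figure D4:**
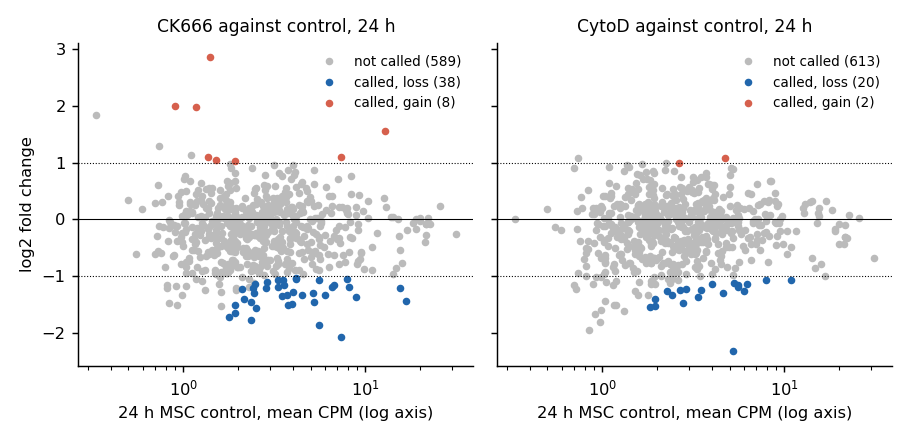
Log2 fold change (y axis) of 635 windows in MSCs after 24 h of CK666 (left) or CytoD (right) against their mean CPM in the 3 untreated libraries (x axis, log scale), with called losses and gains coloured and dotted lines at a log2 fold change of 1 and -1. CK666 shows 38 losses and 8 gains, CytoD 20 losses and 2 gains; both panels share the untreated libraries.

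The largest loss lay in an intron of Pigu, a subunit of the enzyme that attaches GPI anchors, at chr2:155318443-155319013. It had 6.37, 7.38 and 8.17 CPM in the controls at 24 h and 2.2, 1.22 and 1.84 CPM with CK666 (log2 fold change -2.07, SE 0.207, edgeR adjusted p = 3.5e-13). At 4 h the window had 6.79, 7.7 and 5.95 CPM in controls and 8.76, 7.18 and 7.11 CPM with CK666, so that the groups overlapped. Its sequence, printed above, ends in a RUNX match and holds a C/EBP match.

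The window 36013 bp from Hsd17b7, an enzyme of cholesterol synthesis, fell from 5.81, 5.95 and 4.94 CPM to 1.57, 1.36 and 1.69 CPM (log2 fold change -1.85, SE 0.234, edgeR adjusted p = 1.91e-09). A window 119774 bp from Ndufs4, of mitochondrial complex I, fell from 3.04, 3.58 and 5.17 CPM to 0.881, 1.69 and 1.69 CPM. In the Ink4a/Arf run 2 of the 15 windows were called lost, among them the one 7424 bp from the Cdkn2a start, whose sequence is shown above (from 3.89, 6.31 and 5.22 CPM to 1.76, 2.02 and 2.56 CPM, log2 fold change -1.3, SE 0.221, edgeR adjusted p = 4.95e-06). It had a mean of 8.1 CPM in the controls and 4.85 CPM with CK666 at 4 h, which was not called since the log2 fold change was -0.76. Over the run the median log2 fold change was -0.18 at 4 h and -0.32 at 24 h, and it was under 0 in 14 and 12 of the 15 windows. The 24 h window at the Cdkn2a start was 1.57 times as long as the member and had 21.5, 21.6 and 21.8 CPM in controls at 24 h and 16.6, 18.8 and 18.3 CPM with CK666 (log2 fold change -0.27, edgeR adjusted p = 0.0598).

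The named gains with CK666 at 24 h lay in an intron of A830018L16Rik and 70513 bp from Rap2b, a small GTPase. The A830018L16Rik window, which had no read in the NIH3T3 controls, went from 7.79, 6.84 and 7.3 CPM to 16.3, 16 and 14.3 CPM at 24 h and from 6.21, 7.33 and 6.94 CPM to 12.5, 13.4 and 12 CPM at 4 h. The groups did not overlap at either time, with log2 fold changes of 1.09 and 0.86. The Rap2b window went from 1.63, 2.55 and 1.57 CPM to 3.87, 3.53 and 4.5 CPM at 24 h, a log2 fold change of 1.03 just past the limit. Repeats made up 53.9% of the A830018L16Rik window, and its 24 h window was 2.98 times as long. Of the other gains, 3 lay on chromosome 18 and are not named.

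The motif content of the lost windows is given as counts. RUNX, C/EBP and TEAD matches were each found in 11 of the 38 windows (28.9%), against 16.9%, 13.9% and 19.3% of all 646. Read the other way, 11 of 108 windows with a RUNX match were lost (10.2%) against 27 of 527 without (5.12%), and 11 of 90 with a C/EBP match (12.2%) against 27 of 545 without (4.95%). For AP-1 (TGACTCA) it was 4 of 110 (3.64%) against 34 of 525 (6.48%). Higher shares were found for rarer words, with 4 of 24 windows with a FOX match (16.7%), 2 of 11 with EBF (18.2%) and 3 of 21 with CTCF (14.3%). The median log2 fold change was -0.6 with a FOX match and -0.17 without, -0.4 with a C/EBP match and -0.15 without, and -0.19 and -0.18 with and without a RUNX match. These are counts over few windows, given with no test.

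CytoD lost 20 of the 635 windows (3.15%) against 1.4% of all windows tested, and gained 2 (0.315%) against 0.98%. Windows open in both cell types lost in 3.89% and gained in 0.268%, so that the MSC-only windows were not set apart from them. Leaving out libraries gave 14 to 21 losses and 1 to 4 gains, the last counts being 1 without control replicate 1 or without CytoD replicate 1 and 4 without control replicate 2. CK666 and CytoD were compared with the same controls. Of the losses, 6 were called with both agents, which was 15.8% of the CK666 losses and 30% of the CytoD losses. The overlap over all windows is not given beside these shares, so nothing is read from them about the MSC-only windows.

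The largest loss with CytoD lay 25174 bp from Rnd3, a small GTPase that opposes RhoA signalling to the actin cytoskeleton, at chr2:51123410-51123920. It had 5.17, 6.62 and 3.93 CPM in the controls, 1.42, 0.934 and 0.976 CPM with CytoD (log2 fold change -2.32, SE 0.284, edgeR adjusted p = 9.63e-10) and 2.35, 2.4 and 0.973 CPM with CK666 (log2 fold change -1.45, SE 0.252, edgeR adjusted p = 8.15e-06). Both treated groups lay under the controls. At 4 h it had 6.25, 6.36 and 5.44 CPM in controls and 4.24, 4.43 and 4.55 CPM with CK666, and no read was found in any NIH3T3 library. Windows 28516 bp from Cdc123, 609711 bp from Dad1 and 555221 bp from N6amt1 fell with CytoD by 1.3, 1.25 and 1.19 on the log2 scale.

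A gain with CytoD lay in an intron of Cnbd1, with 2.27, 3.09 and 2.59 CPM in the controls and 5.54, 6.14 and 5.34 CPM with CytoD. The groups did not overlap. The log2 fold change was 1 (SE 0.216, edgeR adjusted p = 0.000464), at the limit of a call, and 83.9% of that window was repeat sequence.

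In NIH3T3 the windows stayed far under the MSC level after CK666. The mean over the 646 windows was 0.0772, 0.0859 and 0.0792 CPM in the control libraries and 0.314, 0.196 and 0.256 CPM with CK666. The mean with CK666 was 8.79% of the MSC control mean, against 2.78% without. None of the windows reached 1 CPM in all 3 treated libraries, 25 reached it in at least 1 library, and 169 (26.2%) stayed at or under 0.2 CPM in all 3.

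Called gains were 84 of 646 windows (13%) against 1.69% of all windows tested, and called losses 0 against 1.56%. The rule had held these controls at no more than 5 counts, which left little room for a loss, so the counts are a description and nothing is read from them or their background. Most of the windows also passed the filter on low counts only through the MSC libraries, since a fit of the 6 NIH3T3 libraries kept 17 of the 646 and called 9. The count of gains also depended on single libraries. It was 39, 44 and 47 without NIH3T3 control replicate 3, 2 and 1, and 47, 55 and 89 without CK666 replicate 3, 1 and 2, and 14 windows were called each time. DESeq2 called 55 gains and 0 losses, and at an unadjusted p under 0.05 edgeR had 300 higher and 3 lower windows. At an adjusted p under 0.01 alone there were also 84 gains and 0 losses. The ceiling on the controls bears on all of these counts, so they too are a description.

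Windows that shared the NIH3T3 ceiling but not the MSC floor are given beside them. Of 3309 such windows 3126 were tested, and 357 (11.4%) were called higher with CK666 and 0 lower. Their mean went from 0.0926 CPM in the controls to 0.35 CPM with CK666, which was 3.78 times as high, and in the MSC-only windows it was 3.16 times as high. Both ratios divide by the controls that the ceiling held low. The NIH3T3 libraries with CK666 also had a higher median over all autosomal windows, at 1.17, 0.942 and 1.04 CPM against 0.821, 0.933 and 0.85 CPM in the controls, and their part in the gains was not tested.

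The effect of the choice was measured by leaving out a replicate. When the rule was applied to 2 replicates of each cell type, the NIH3T3 controls that chose the windows had a mean of 0.0948, 0.0948 and 0.094 CPM, and the control left out had 0.163, 0.237 and 0.179 CPM. The libraries with CK666 had 0.312, 0.348 and 0.315 CPM in the same windows. The treated mean was thus 1.91, 1.47 and 1.76 times the control that had no part in the choice. CK666 replicate 2 was the lowest of the treated libraries, with 0.244, 0.266 and 0.242 CPM. The left-out MSC control kept at least 1 CPM in 88.6% to 90.2% of the windows.

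**Figure D5:**
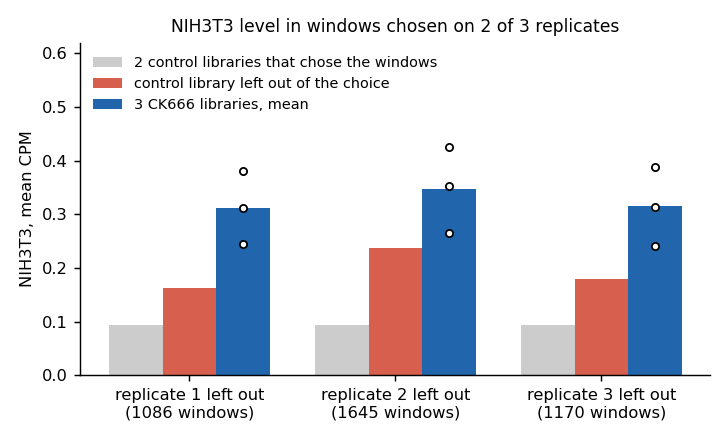
Mean CPM in NIH3T3 libraries (y axis) over windows chosen on 2 of the 3 replicates of each cell type, with replicate 1, 2 or 3 left out (x axis); bars show the controls that chose the windows, the control left out and the mean of the CK666 libraries, and circles the 3 CK666 libraries. The left-out control stands at 0.163, 0.237 and 0.179 CPM, between the controls that chose the windows and CK666 at 0.312, 0.348 and 0.315 CPM.

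The 84 windows reached a median of 0.518 CPM with CK666, from 0.254 to 1.04 CPM, against 0.0862 CPM in their controls, and a median of 22.5% of their own MSC control level. Among the windows with a read in the controls that are named here, the largest gain lay 68587 bp from Srek1, a splicing regulator, at chr13:103679986-103680539. It had 0, 0.0718 and 0 CPM in the NIH3T3 controls and 0.828, 0.314 and 0.346 CPM with CK666, beside 1.05, 1.07 and 1.13 CPM in the MSC controls. That window was close to the floor of the rule in MSC.

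The other named gains were 834189 bp from Mdga2, in an exon of Otp, a homeobox gene, 1694 bp from Chrnb4, a nicotinic receptor subunit, in an exon 23060 bp from the start of Parp16 and in an intron of Hdac4, a histone deacetylase. Their log2 fold changes were between 3.17 and 3.59, against controls that the ceiling held low. The Hdac4 window had 0.0821, 0 and 0.111 CPM in the controls and 0.552, 0.493 and 0.907 CPM with CK666, and the Chrnb4 window had 0, 0.0359 and 0.148 CPM and 1.38, 0.269 and 0.778 CPM. The treated libraries differed up to several fold among themselves. Of the windows with no NIH3T3 control read in the Ink4a/Arf run none was called, and the Cdkn2b start had 0, 0 and 0.0864 CPM with CK666. Of the 84 windows 4 were also called in MSC at 4 h, among them those of Marc1, Nedd9 and Osbpl11.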

How the data were processed

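The authors made Omni-ATAC libraries, processed the reads with PEPATAC (bowtie2 alignment, MACS2 peaks) on mm10 and deposited raw read counts over consensus windows, with a table for 4 h and another for 24 h. The sources used here do not state filters on multiply mapped reads. CPM was the count divided by the column total. Members, gene lists, motifs and tests were chosen with earlier results of these data known.

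Counts were tested with edgeR 4.0.16 in R 4.3.3 (default low-count filter, TMM factors, quasi-likelihood test, Benjamini-Hochberg adjustment over all windows tested). A call needed a log2 fold change over 1 in size together with an adjusted p under 0.01. CK666 in MSC at 4 h was fitted on 6 libraries, the contrasts with NIH3T3 on all 12 of the 4 h table, and the 24 h contrasts on 9. Adjusted p-values are from these fits, the fit was checked on simulated counts, and DESeq2 1.42.0 was an alternative. Genes and sequences came from GENCODE vM21 and GRCm38, and copies from minimap2 2.31. To check the build, annotated start sites were placed on the 4 h windows: 54.4% fell in a window, against 15.6% after a shift of 20 kb.

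Windows were named by rule: the 8 highest in MSC controls, the 12 genes with most members within 50 kb, up to 4 gains and 4 losses per MSC contrast (50 normalized counts, no overlap), 6 gains in NIH3T3 (10 normalized counts with CK666), listed genes with a member at their start and the 3 longest runs, without chromosome 18. Some windows that the rule names are not reported here. The 13 gene lists are described by counts. The 9 siRNA libraries were not used: over 162076 windows their rank correlation with the 24 h controls was between -0.0049 and -0.000824, against 0.859 to 0.88 for CK666 and CytoD libraries.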

Additional observations from a re-analysis of the deposited data

How the results depend on the processing

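The number of windows depended on the limits: limits of 2 and 0.1 CPM left 86, and the rule on 2 of 3 replicates gave 1086 to 1645. In MSCs at 4 h, gains were 5 to 10 and losses 3 to 8 with a library left out, and losses were 3 in the fit of all 12 libraries. In NIH3T3, gains were 55 with DESeq2, 39 to 89 with a library left out, and 9 in a fit of the 6 NIH3T3 libraries, whose filter kept 17 of the windows. Between treated cell types 633 to 641 were called. At 24 h, CK666 gains were 5 to 11 and losses 26 to 39, and CytoD losses 14 to 21. CytoD gains were 1 with RLE factors, without a filter or with DESeq2, 5 with total counts only, and 1 to 4 with a library left out. The causes of these shifts were not tested, other than the filter named.

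Replicate numbers did not pair the libraries (correlations of same-numbered deviations between -0.0631 and 0.0296). With the replicate block, calls were 6 gains and 7 losses in MSC at 4 h, 70 gains in NIH3T3, 640 between treated cell types, and at 24 h 8 and 37 with CK666 and 2 and 20 with CytoD. Alternatives restricted to windows with some NIH3T3 reads, with 1 place in the genome or with a 24 h window at most 1.5 times as long were added after seeing the data. A fit without libraries that stand apart was not run, since none was set apart. With at most 4 or 5 counts per control library, depth limits what can be seen under the NIH3T3 control level.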
